A study of Mus musculus with 8 samples.

Results

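The genes described here are the core of transforming growth factor beta (TGF-beta) signalling: the ligands Tgfb1, Tgfb2 and Tgfb3, the receptors Tgfbr1 and Tgfbr2, the ligand anchor Lrrc32, the signal carriers Smad2 and Smad3, the inhibitor Smad7 and the induced matrix protein Tgfbi. They were chosen by name, and a gene was measured where a probe set of the array listed that gene symbol and no other. Of the 10 genes, 9 had exactly 1 such probe set, among 21218 probe sets with 1 symbol. The probe set of Tgfbr2 also lists Mib1, so Tgfbr2 was not analysed here. The arrays held total RNA from CD3-positive T cells of wild-type CD1 mice, an outbred strain, isolated at day 30 from grafts of tissue derived from human embryonic stem cells. In the tolerant group (4 arrays) the host had been given injections listed as anti-CD4, anti-CD8 and CD40L, and in the rejecting group (4 arrays) the host was untreated and rejected its graft. Neither age, sex nor pooling of the mice is stated in the labels. Arrays are numbered 1 to 4 in each group, but the labels name no separate mice, so the spread behind every p-value is that among these arrays and may be technical.

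TGF-beta is secreted in a latent form, in which a propeptide encloses the active ligand. Lrrc32, also called GARP, holds latent TGF-beta on the surface of regulatory T cells, platelets and endothelial cells. Active ligand joins the receptors Tgfbr2 and Tgfbr1, and Tgfbr1 phosphorylates Smad2 and Smad3, which enter the nucleus with Smad4. Smad7 is induced by the pathway and blocks the receptor. In T cells TGF-beta is known for restraining effector responses and for promoting regulatory, tissue-resident and interleukin-17 producing states, and in fibroblasts for inducing matrix genes.

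The promoter sequences of the members whose signal could be told from background on at least 1 array are shown for context, since these are the members that the values below can speak to. RefSeq windows (GRCm38.p6, 250 bases before to 50 bases after the gene start) were found for 6 of the 10 members. Among the 4 members with a signal above background they covered Tgfb1 (chr7:25686752-25687051, + strand), Smad3 (chr9:63757945-63758244, - strand) and Tgfbi (chr13:56609336-56609635, + strand). Each is printed 5′ to 3′ on the strand of the gene, and capitals mark the core Smad motif CAGAC and the GC box GGGCGG on either strand.
Tgfb1: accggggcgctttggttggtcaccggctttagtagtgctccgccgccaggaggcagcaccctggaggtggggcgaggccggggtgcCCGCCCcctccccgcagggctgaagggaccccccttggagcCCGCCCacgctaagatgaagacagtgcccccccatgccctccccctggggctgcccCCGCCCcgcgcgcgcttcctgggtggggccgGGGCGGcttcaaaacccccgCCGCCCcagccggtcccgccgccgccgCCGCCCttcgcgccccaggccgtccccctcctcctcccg
Smad3: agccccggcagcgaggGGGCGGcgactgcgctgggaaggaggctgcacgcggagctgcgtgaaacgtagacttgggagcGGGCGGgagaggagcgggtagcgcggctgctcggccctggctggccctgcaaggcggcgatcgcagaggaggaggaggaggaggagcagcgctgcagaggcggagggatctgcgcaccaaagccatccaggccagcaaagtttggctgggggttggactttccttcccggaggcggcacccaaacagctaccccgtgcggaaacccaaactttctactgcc
Tgfbi: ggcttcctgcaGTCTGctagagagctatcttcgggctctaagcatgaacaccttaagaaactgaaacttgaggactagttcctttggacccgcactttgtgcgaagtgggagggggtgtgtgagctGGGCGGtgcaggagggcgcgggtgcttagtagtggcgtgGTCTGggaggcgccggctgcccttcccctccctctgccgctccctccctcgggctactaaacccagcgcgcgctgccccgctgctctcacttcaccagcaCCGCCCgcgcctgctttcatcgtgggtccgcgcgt
The Tgfb1 window held 6 GC boxes and 0 CAGAC matches, and at least 6 GC boxes were found in 1.35% of the 32851 windows of the same length. The Smad3 window held 2 GC boxes and 0 CAGAC matches. The Tgfbi window held 2 GC boxes and 2 CAGAC matches, and 49.6% of all windows held at least 1 CAGAC match. The longer palindromic Smad element GTCTAGAC was found in 0 of the 7 member windows (Tgfbr1 has 2) and in 0.213% of all windows. A match is a run of letters and not a tested site.

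The values are log2 RMA values as deposited, and differences are tolerant minus rejecting. RMA subtracts background, makes the arrays share 1 intensity distribution and gives each probe set 1 value. As a background line, the 99th percentile of 1182 olfactory or vomeronasal receptor probe sets was taken on each array, receptors of sensory neurons. The lines lay between 0.99 and 1.35. The arrays numbered 3 and 4 carried more signal than those numbered 1 and 2, with 17.1% and 17.1% of probe sets above the line on tolerant and 15.1% and 10.7% on rejecting arrays 3 and 4. On arrays 1 and 2 the shares were 2.77% and 2.54% for tolerant and 5.03% and 5.73% for rejecting samples. Pearson correlations across probe sets were 0.855 to 0.927 among arrays 3 and 4, 0.598 to 0.639 among arrays 1 and 2, and 0.551 to 0.654 between the sets, a range that encloses the values among arrays 1 and 2. The members are therefore compared over all 8 arrays and within each of these array sets. The other lists are described mainly on arrays 3 and 4, which carried more signal. Of 12 measured T cell markers, Cd3e and Cd5 lay above the line on 5 arrays each, while Cd3d, Cd247 and Cd28, named after their values were seen, lay above it on 0 of the 8.

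The members lay at or near background on most arrays. Of the 9, 4 were above the line on at least 1 array, against 26.4% of all probe sets, and 0 were above it on 4 or more arrays, against 8.76%. Tgfb1 and Tgfbi were above it on 3 arrays each, 2 of 9 against 12.1%, Lrrc32 and Smad3 on 1 each. Tgfb2, Tgfb3, Tgfbr1, Smad2 and Smad7 were above it on 0 of the 8 arrays. For these 5 genes the values bound the signal from above and do not show that the gene was silent. In a mixed sample, fewer cells of a type and less RNA per cell cannot be told apart.

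**Figure D1:**
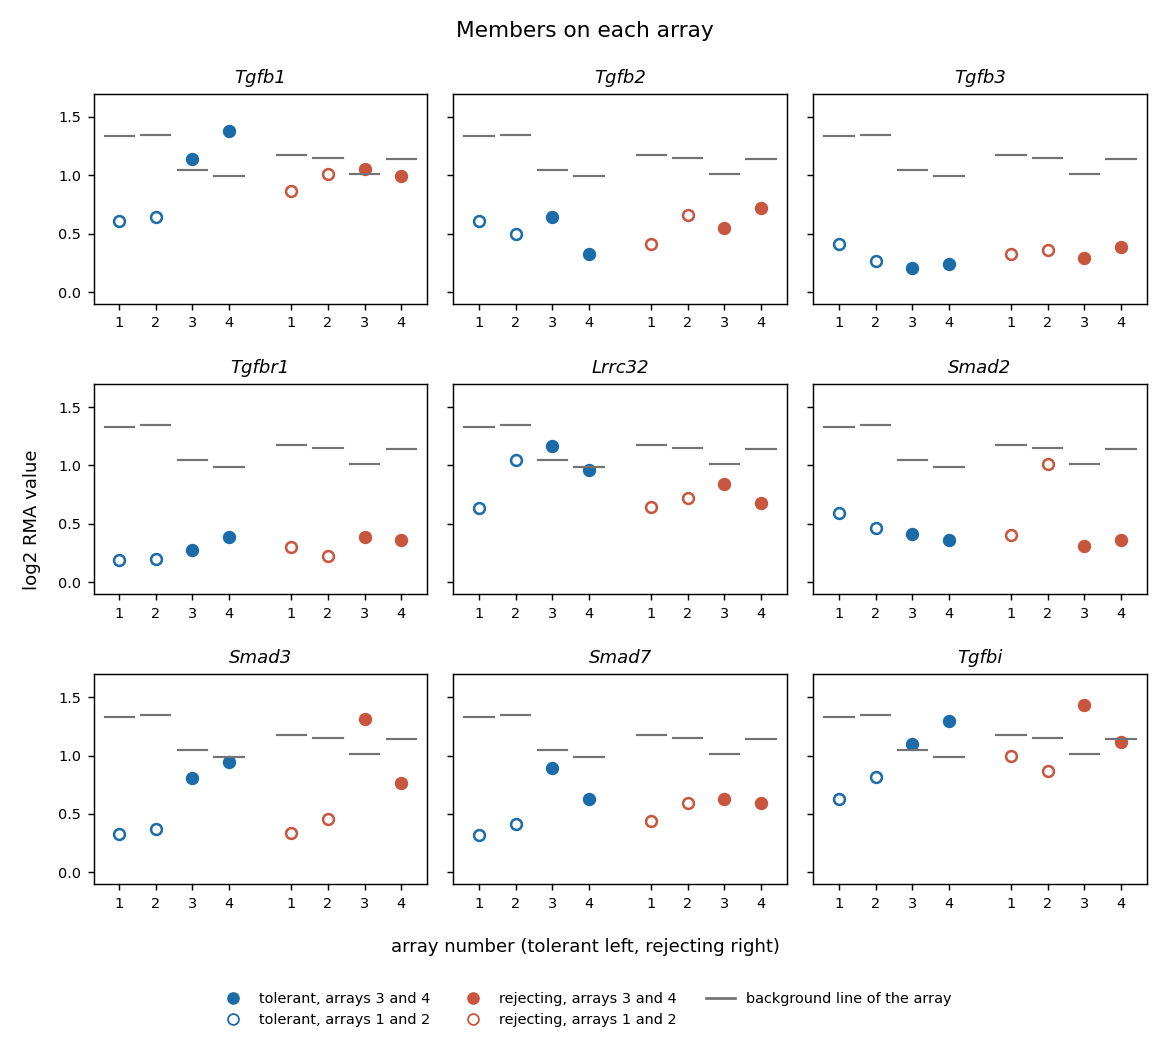
Log2 RMA value of each measured member on each array, tolerant arrays left and rejecting arrays right, filled points for the arrays numbered 3 and 4 and open points for 1 and 2. Grey bars are the background line of each array, and Tgfb1 and Tgfbi pass it on 3 arrays each while 5 members pass it on 0.

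Over all 8 arrays, tolerant T cells differed from rejecting ones in 0 of the 9 members (limma with Benjamini-Hochberg adjustment over 21218 probe sets, 2-sided, adjusted p under 0.05), against 0% of all probe sets. At an unadjusted p under 0.05 there were 0 members, against 2.89% of all probe sets. The groups overlapped in each of the 9 members, against 2.22% of all probe sets without overlap. The median difference of the members was -0.06, beside 0.00036 for all probe sets, and 1 of the 9, Lrrc32, had a positive difference, as had 50.1% of all probe sets.

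Among the ligands, Tgfb1, the isoform that lymphocytes and platelets chiefly make, had opposite differences on the array sets. Tgfb1 (probe set 10551185) read 0.61, 0.65, 1.14 and 1.38 on tolerant arrays 1 to 4, against 0.87, 1.01, 1.06 and 0.99 on rejecting arrays 1 to 4. The tolerant values spread more widely than the rejecting ones and enclosed them. Over all arrays Tgfb1 averaged 0.94 ± 0.38 in tolerant and 0.98 ± 0.08 in rejecting samples (SD, n = 4 each), and its difference was -0.04 ± 0.17 (SE, limma adjusted p = 1.00). On arrays 3 and 4 both tolerant values lay above both rejecting ones, with a difference of 0.23 (95% confidence interval -0.08 to 0.55, limma adjusted p = 0.730). On arrays 1 and 2 both tolerant values lay below both rejecting ones, all under the background line, with a difference of -0.31 (95% confidence interval -0.67 to 0.04, limma adjusted p = 0.936). Tgfb1 differed in its difference between the array sets by 0.55 ± 0.19 (SE), and its unadjusted limma p of 0.0180 did not survive adjustment (adjusted p = 0.644). It was the 1 member with an unadjusted p under 0.05 for that difference, against 7.13% of all probe sets. Of the 12 T cell markers 9 were higher on tolerant arrays 3 and 4, against 48.2% of all probe sets. Of these markers 0 passed, against 0.0518%, and the median difference was 0.10. Their summed linear level there was 27.6 to 39.0 on tolerant and 22.8 to 26.3 on rejecting arrays, and without Cd3e, a choice made after seeing the data, it was 20.8 to 24.8 on tolerant and 20.0 to 21.1 on rejecting arrays, which overlap. The share of probe sets above the line also changed direction between the array sets. It was 17.1% on each of tolerant arrays 3 and 4, against 15.1% and 10.7% on rejecting arrays 3 and 4. On arrays 1 and 2 it was 2.77% and 2.54% on tolerant and 5.03% and 5.73% on rejecting arrays. The part of these markers or of these shares in the Tgfb1 values was not tested.

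The other ligands, Tgfb2 and Tgfb3, stayed under the line on all 8 arrays. Tgfb2 (10360920), which is widely made in development, read 0.61, 0.50, 0.65 and 0.33 on tolerant and 0.41, 0.66, 0.55 and 0.72 on rejecting arrays 1 to 4. Its groups overlapped on both array sets, and its difference over 8 arrays was -0.06 (95% confidence interval -0.31 to 0.18). Tgfb3 (10401673), the isoform studied for its part in pathogenic interleukin-17 producing T cells in mice, read 0.41, 0.26, 0.21 and 0.24 on tolerant and 0.33, 0.36, 0.29 and 0.38 on rejecting arrays. Both tolerant values of Tgfb3 on arrays 3 and 4 lay below both rejecting ones, with a difference of -0.11 (limma adjusted p = 0.830), and on arrays 1 and 2 they overlapped.

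Lrrc32, the anchor of latent TGF-beta, had the highest difference of the members over all 8 arrays and on arrays 3 and 4, and neither passed the test. Lrrc32 (10555174) read 0.63, 1.05, 1.16 and 0.96 on tolerant arrays 1 to 4, against 0.65, 0.72, 0.84 and 0.68 on rejecting arrays 1 to 4. Tolerant array 1 was the lowest of the 8, and the other 3 tolerant arrays were the highest. Lrrc32 averaged 0.95 ± 0.23 in tolerant and 0.72 ± 0.09 in rejecting samples (SD, n = 4 each), which gives a difference of 0.23 and a 95% confidence interval of -0.05 to 0.50 (limma adjusted p = 1.00). On arrays 3 and 4 the difference was 0.30 (95% confidence interval -0.02 to 0.62, limma adjusted p = 0.699), and on arrays 1 and 2 it was 0.16 (limma adjusted p = 0.959). Its only value above the line, 1.16 on tolerant array 3, was close to the line of 1.05.

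Lists of cells that carry Lrrc32 were set beside it. Of all probe sets, 48.2% were higher on tolerant arrays 3 and 4 and 0.0518% passed. Of 12 listed regulatory T cell markers 11 were measured, and Foxp3 was not. Of these 11 markers, 5 were higher on tolerant arrays 3 and 4 and 0 passed, with a median difference of -0.015. Their summed level was 16.6 to 19.7 on tolerant and 17.3 to 19.4 on rejecting arrays 3 and 4. Of 8 measured platelet markers 2 were higher, with a median of -0.06 and a summed level of 11.6 to 12.1 on tolerant and 12.6 to 13.4 on rejecting arrays 3 and 4. Of 11 endothelial markers 7 were higher, with a median of 0.13, and the summed level was 19.8 to 21.6 on tolerant and 17.2 to 18.1 on rejecting arrays. Of these 11 markers 0 passed, and 0 to 3 lay above the line on any of arrays 3 and 4. The part of any of these cells in the Lrrc32 values was not tested.

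The receptor kinase Tgfbr1 and the Smads showed no difference past the test. Tgfbr1 (10504817) read 0.19, 0.20, 0.28 and 0.39 on tolerant and 0.30, 0.23, 0.39 and 0.36 on rejecting arrays 1 to 4, all far under the line. Smad2 (10456764) read 0.59, 0.46, 0.41 and 0.36 on tolerant and 0.41, 1.01, 0.31 and 0.36 on rejecting arrays. The value of rejecting array 2 stood apart from the other 7, which lay between 0.31 and 0.59. With that array the difference of Smad2 over 8 arrays was -0.07, and without it 0.10.

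Smad3, the partner of Smad2, differed between the array sets more than between the groups. Smad3 (10594404) read 0.33, 0.37, 0.80 and 0.94 on tolerant arrays 1 to 4, against 0.34, 0.45, 1.31 and 0.77 on rejecting arrays 1 to 4. Its 4 values on arrays 3 and 4 all lay above its 4 values on arrays 1 and 2, by 0.58 on average. Smad3 passed the line once, on rejecting array 3, and its difference on arrays 3 and 4 was -0.17 with that array and 0.11 without it.

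Smad7, the inhibitor that the pathway induces, also read higher on arrays 3 and 4, but the sets were barely apart. Smad7 (10456745) read 0.32, 0.42, 0.89 and 0.62 on tolerant arrays 1 to 4, against 0.44, 0.59, 0.63 and 0.60 on rejecting arrays 1 to 4. All of these values lay under the line, and rejecting array 4 at 0.597 was close to rejecting array 2 at 0.592. Over 8 arrays its difference was -0.0018 with a 95% confidence interval of -0.29 to 0.29. Its difference on arrays 3 and 4 was 0.14 and on arrays 1 and 2 -0.15, and the difference between the sets did not pass (limma adjusted p = 0.815).

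Tgfbi, a secreted matrix protein named for its induction by TGF-beta, was the other member with a signal on 3 arrays. Tgfbi (10405587) read 0.63, 0.82, 1.10 and 1.30 on tolerant arrays 1 to 4, against 0.99, 0.87, 1.43 and 1.12 on rejecting arrays 1 to 4. It was highest on rejecting array 3, and the groups overlapped on arrays 3 and 4. Tgfbi averaged 0.96 ± 0.30 in tolerant and 1.10 ± 0.24 in rejecting samples (SD, n = 4 each), which gives a difference of -0.14 and a 95% confidence interval of -0.52 to 0.24 (limma adjusted p = 1.00). The difference was -0.07 on arrays 3 and 4 and -0.21 on arrays 1 and 2.

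**Figure D2:**
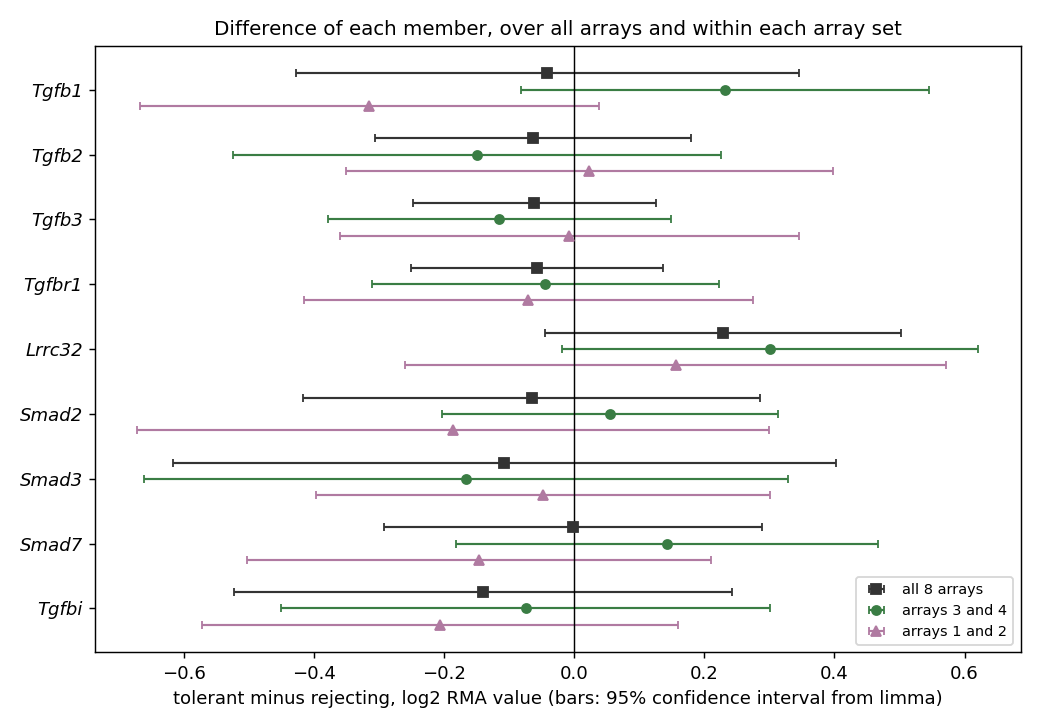
Tolerant minus rejecting difference of each member in log2 RMA value, over all 8 arrays (squares), on arrays 3 and 4 (circles) and on arrays 1 and 2 (triangles), with 95% confidence intervals from limma as bars. Each interval includes 0, and Tgfb1 lies at 0.23 on arrays 3 and 4 and at -0.31 on arrays 1 and 2.

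Within the array sets, 0 of the 9 members passed on arrays 3 and 4, against 0.0518% of all probe sets, and 0 passed on arrays 1 and 2, against 0%. In each set 0 members had an unadjusted p under 0.05, against 7.21% and 5.15% of all probe sets. Positive differences were found in 4 of 9 members on arrays 3 and 4, against 48.2% of all probe sets, and in 2 of 9 on arrays 1 and 2, against 49.4%. Without overlap, Tgfb1, Lrrc32 and Smad2 were higher on arrays 3 and 4, 3 of 9 against 19.3% of all probe sets, and Tgfb3 was lower without overlap, 1 of 9 against 20.0%. Smad2 and Tgfb3 lay under the line on each array. In Smad2 the groups were barely apart, at 0.364 on tolerant array 4 against 0.358 on rejecting array 4. Among arrays 1 and 2, Tgfb1, Tgfbr1, Smad7 and Tgfbi were lower without overlap, 4 of 9 against 17.1%, and 0 were higher, against 17.2%. These 4 genes lay under the line on all 4 of those arrays. There the tolerant arrays also had smaller shares of probe sets above it than the rejecting ones, and the part of this was not tested. Between the array sets, Smad3, Smad7 and Tgfbi were higher on arrays 3 and 4 without overlap, 3 of 9 against 10.1% of all probe sets, and 0 were lower, against 5.99%. The sets were barely apart in Smad7, which lay under the line throughout. The test of the difference between the sets called 0 of 9 members, against 0.0566% of all probe sets, and was positive in 6 of 9, against 50.2%. The intervals on arrays 3 and 4 reached from -0.66 at their lowest, for Smad3, to 0.62 at their highest, for Lrrc32.

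Genes whose profile over the 8 arrays was most like that of a member were sought among probe sets above the line on at least 4 arrays, and 0 members met that minimum. With a minimum of 3 arrays, chosen after the values were seen, Tgfb1 and Tgfbi could be compared with 2464 probe sets. Likeness was the root mean square difference in log2 value after each probe set's own mean was subtracted. The genes nearest to Tgfb1 were Mical3 (0.089), Dbn1 (0.094) and Kmt5c (0.099), beside a median of 0.305 over the probe sets compared. The genes nearest to Tgfbi were Cdk4 (0.073), Armc7 (0.095) and Tm9sf1 (0.11), beside a median of 0.303. These probe sets share the array sets with the members, and arrays 3 and 4 averaged higher than arrays 1 and 2 in Tgfb1 by 0.36 and in Tgfbi by 0.41. Both members met the minimum only on tolerant arrays 3 and 4 and rejecting array 3. The minimum thus favours probe sets with a step between the array sets, and the part of that step in the likeness was not tested. Mical3 read 0.95, 1.06, 1.61 and 1.57 on tolerant arrays 1 to 4, against 1.30, 1.41, 1.31 and 1.37 on rejecting arrays 1 to 4. It thus had a step in the tolerant group only.

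Among extracellular proteins that bind the TGF-beta family, Bgn and Fmod passed the test on arrays 3 and 4, both higher in tolerant T cell samples. Of 10 measured binding antagonists of the TGF-beta family, 7 were higher there, against 48.2% of all probe sets, and these 2 passed, against 0.0518%. The median difference was 0.63, beside -0.0067 for all probe sets. The list was written with earlier results of these data known, and Bgn, Dcn and Fmod are in it. Its 3 lower genes, named after their values were seen, were Grem1 (-0.08), Cer1 (-0.13) and Vwc2 (-0.36). Over all 8 arrays 8 of the 10 were higher and 0 passed, with a median of 0.32. Bgn, biglycan, a small proteoglycan that binds TGF-beta in the matrix, read 0.76, 0.84, 4.16 and 4.06 on tolerant arrays 1 to 4, against 0.81, 1.32, 1.46 and 1.59 on rejecting arrays 1 to 4. Its values on tolerant arrays 3 and 4 stood above all others, while those on tolerant arrays 1 and 2 lay under the line. Bgn (10600169) differed by 2.59 ± 0.11 (SE) on arrays 3 and 4 (limma adjusted p = 0.00826). Fmod, fibromodulin, a proteoglycan of the same family, read 0.83, 0.66, 2.04 and 1.87 on tolerant arrays, against 0.47, 0.55, 0.43 and 0.43 on rejecting arrays. Fmod (10349947) differed by 1.53 ± 0.11 (SE) on arrays 3 and 4 (limma adjusted p = 0.0440). Its rejecting values all lay under the line, so the size of that difference is not exact.

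Dcn and Thbs1 missed the threshold on arrays 3 and 4 alone and passed the test of the difference between the array sets. Dcn, decorin, the proteoglycan best known for neutralising TGF-beta, read 0.33, 0.87, 4.90 and 4.39 on tolerant arrays 1 to 4, against 0.65, 0.52, 1.76 and 1.10 on rejecting arrays 1 to 4. Its difference on arrays 3 and 4 was 3.21 ± 0.27 (SE, limma adjusted p = 0.0581). Thbs1, thrombospondin, which releases TGF-beta from its latent complex and is also a platelet granule protein, read 0.56, 0.43, 2.22 and 2.10 on tolerant arrays, against 0.75, 0.83, 0.76 and 0.56 on rejecting arrays. Its difference was 1.50 ± 0.12 (SE) on arrays 3 and 4 (limma adjusted p = 0.0567) and -0.29 on arrays 1 and 2. The rejecting values of Thbs1 on arrays 3 and 4 and that of Dcn on rejecting array 4 lay under the line, so these sizes are not exact either. The difference between the array sets was 1.79 for Thbs1 (limma adjusted p = 0.0163), 3.20 for Dcn (0.0289) and 2.86 for Bgn (0.00543). The bone morphogenetic protein antagonist Sostdc1 and the follistatin relative Fstl1 had differences of 1.02 and 0.60 on arrays 3 and 4 and did not pass (limma adjusted p = 0.128 and 0.286). Arrays 1 and 2 had little signal, so an absent difference there cannot be told from an absent signal.

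Each of these calls depended on single arrays or on the fit. Bgn did not pass on arrays 3 and 4 without tolerant replicate 3 (adjusted p = 0.326) or without tolerant replicate 4 (0.137), with all probe sets tested together (0.118) or with a variance trend (0.110), and its adjusted p over all alternatives ranged from 0.0013 to 0.326. Fmod did not pass without any 1 of the 4 arrays (0.0623 to 0.342), with the filter on dim probe sets (0.0933) or with all probe sets (0.159), and ranged from 0.0129 to 0.342 over all alternatives. With the replicate number as a block, Fmod did not pass (adjusted p = 0.0693) and Dcn passed (0.0189), while Dcn ranged from 0.0174 to 0.364 over all alternatives. For the difference between the sets, Thbs1 did not pass with the block (0.0780) and ranged from 0.0069 to 0.108. Thbs1 and Dcn did not pass that test without tolerant replicate 1, 2 or 3 or rejecting replicate 1 or 2, and Bgn did not without tolerant replicate 1, 2 or 3. With quantile normalization again none of the 3 passed that test (adjusted p = 0.0829 each), and with all probe sets none did (0.0754 for Bgn, 0.203 for Dcn and 0.104 for Thbs1). Over all alternatives the adjusted p of that test ranged from 0.0016 to 0.0829 for Bgn and from 0.0103 to 0.203 for Dcn. The differences themselves on arrays 3 and 4 kept their sign, at 2.06 to 2.65 for Bgn, 1.24 to 1.62 for Fmod, 2.68 to 3.55 for Dcn and 1.18 to 1.60 for Thbs1.

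Markers of other cells were read on the same arrays. Of all probe sets, 48.2% were higher on tolerant arrays 3 and 4 and 0.0518% passed. The fibroblast list holds Dcn itself. Of its other 11 genes, 11 were higher on tolerant arrays 3 and 4 and 0 passed, with a median difference of 0.49. Without Dcn, a choice made after seeing the data, the summed linear level was 43.1 to 45.7 on tolerant and 28.9 to 33.4 on rejecting arrays 3 and 4. With Dcn it was 64.0 to 75.7 on tolerant and 31.0 to 36.8 on rejecting arrays 3 and 4. Of the 13 macrophage markers 9 were higher, 4 were lower and 0 passed, with a median difference of 0.34. Lyz2 and C1qb, 2 of the higher ones, had differences of 2.40 and 2.00, far above that median, so they do not stand for the list. The summed level of the 13 was 41.7 to 48.1 on tolerant and 19.4 to 30.0 on rejecting arrays. On rejecting array 3, 6 of the 13 lay above the line, and on rejecting array 4, 0 did. All 14 kidney tubule markers were higher and 2, Slc12a3 and Calb1, passed, with a summed level of 66.9 to 149.2 on tolerant and 24.7 to 26.5 on rejecting arrays. On arrays 1 and 2, 5 of 12 fibroblast, 7 of 13 macrophage and 4 of 14 kidney tubule markers were higher. Of all probe sets, 49.4% were higher there. The part of these cells in the values of Bgn, Fmod, Dcn and Thbs1 was not tested.

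**Figure D3:**
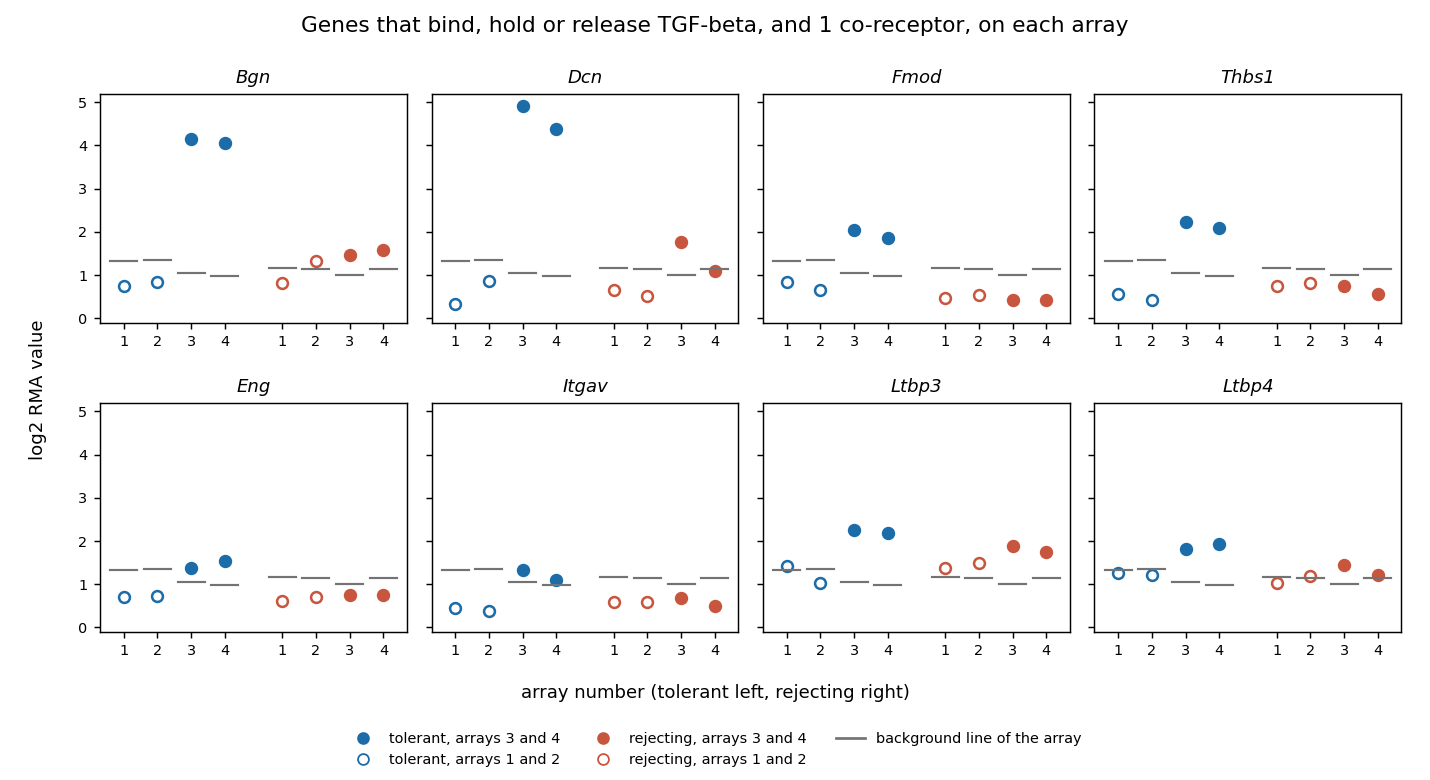
Log2 RMA value on each array of the genes Bgn, Dcn, Fmod, Thbs1, Eng, Itgav, Ltbp3 and Ltbp4, laid out and coloured as for the members. Tolerant arrays 3 and 4 stand above the other 6 arrays in each panel, most widely in Dcn at 4.90 and 4.39. The genes shown are those with the smallest p on arrays 3 and 4 in their lists, so this likeness follows from the choice. On tolerant arrays 3 and 4, 3 of 10 binding antagonists, 4 of 16 storage and activation genes and 6 of 13 co-receptors and relatives were lower.

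Of 16 measured genes that store and activate TGF-beta, 12 were higher on tolerant arrays 3 and 4, against 48.2% of all probe sets. There 0 passed, against 0.0518%, and 5 had an unadjusted p under 0.05, against 7.21%. The median difference was 0.11. Ltbp3 and Ltbp4, which bind latent TGF-beta to the matrix, had differences of 0.41 and 0.55 (limma adjusted p = 0.505 and 0.404). On 7 arrays Ltbp3 was above the line. Itgav, the integrin chain of the complexes that free TGF-beta, read 1.34 and 1.09 on tolerant arrays 3 and 4, against 0.68 and 0.49 on rejecting arrays 3 and 4 (difference 0.63, limma adjusted p = 0.366). Itgb1, an integrin chain above the line on 7 arrays, had a difference of -0.07.

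Of 13 co-receptors and receptor relatives, 7 were higher on tolerant arrays 3 and 4, against 48.2% of all probe sets. There 0 passed, against 0.0518%, and the median was 0.015. Over all 8 arrays 5 of the 13 were higher, against 50.1% of all probe sets, with a median of -0.033. Eng, endoglin, a co-receptor of endothelial and other stromal cells, stood out with 1.37 and 1.54 on tolerant arrays 3 and 4, against 0.74 and 0.76 on rejecting arrays 3 and 4. Its difference was 0.71 ± 0.11 (SE, limma adjusted p = 0.224). Acvrl1, a receptor that works with Eng in endothelial cells, had a difference of 0.20, and the receptor Bmpr2 one of 0.28. Amhr2, the receptor of anti-Mullerian hormone, had a difference of -0.26 and the activin receptor Acvr2b one of -0.13.

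Among 5 other Smads, 3 were higher on tolerant arrays 3 and 4, against 48.2% of all probe sets, and 0 passed, against 0.0518%. Smad4, the common partner of Smad2 and Smad3, read 0.93, 0.77, 1.73 and 1.22 on tolerant arrays 1 to 4, against 0.77, 0.97, 1.00 and 0.71 on rejecting arrays 1 to 4. Its values on tolerant arrays 3 and 4 were the highest of the 8 and the only ones above the line, with a difference of 0.62 on arrays 3 and 4 (limma adjusted p = 0.597). Smad6, an inhibitor like Smad7, had a difference of -0.022. The Smads of bone morphogenetic protein signalling, Smad1, Smad5 and Smad9, had differences of 0.07, 0.15 and -0.026.

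Of 21 Smad cofactors and negative regulators, 15 were higher on tolerant arrays 3 and 4, against 48.2% of all probe sets. There 0 passed, against 0.0518%, and 6 had an unadjusted p under 0.05, against 7.21%. The median was 0.05. The acetyltransferases Ep300 and Crebbp, which Smads recruit, had differences of 0.74 and 0.51 (limma adjusted p = 0.406 and 0.366). The ubiquitin ligase Nedd4l and the kinase Hipk2 had differences of 0.46 and 0.48. Ski, a repressor of Smad-driven transcription, lay above the line on 7 arrays and had a difference of 0.18. Fkbp1a, which binds the receptor kinase, and the corepressor Tgif2 had differences of 0.021 and -0.012. Of 11 genes of non-Smad signalling, 10 were higher, against 48.2% of all probe sets, and 0 passed, with a median of 0.19. Among them Rhoa, a small GTPase, read 2.93 and 3.16 on tolerant and 1.00 and 2.13 on rejecting arrays 3 and 4, and Tab2, a partner of the kinase Map3k7, had a difference of 0.77 (limma adjusted p = 0.436 and 0.315). Pik3r1, Map3k7 and Akt1, of kinase signalling, had differences of 0.40, 0.39 and 0.25.

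Genes known to respond to TGF-beta were split by cell type. Of 13 genes listed as induced in T cells, 8 were higher on tolerant arrays 3 and 4, against 48.2% of all probe sets. There 0 passed, against 0.0518%, and 0 had an unadjusted p under 0.05, against 7.21%. The median was 0.0096. Over all 8 arrays 5 of the 13 were higher, against 50.1% of all probe sets, with a median of -0.016. On arrays 3 and 4 the inhibitory receptor Ctla4 and the Smad repressor Skil had differences of -0.21 and -0.20, and the kinase Sgk1 0.23. The cytokine Il9 had the difference farthest from 0 among those named from this list, -0.39 (limma adjusted p = 0.703), and Rgs16, a regulator of G-protein signalling, 0.0022. Of 18 genes listed as induced in fibroblasts, 15 were higher, against 48.2% of all probe sets, and 0 passed. An unadjusted p under 0.05 was found in 6, against 7.21%, and the median was 0.21. Fn1, fibronectin, read 2.54 and 2.17 on tolerant and 1.21 and 1.18 on rejecting arrays 3 and 4, a difference of 1.16 (limma adjusted p = 0.154). Ccn2, a matricellular protein, had a difference of 0.68 and Col1a1, a collagen chain, 0.72. Col1a1, Col1a2 and Col3a1 are also in the fibroblast marker list, and Ltbp2 is also among the genes of storage and activation. Ski and Skil, of the T cell list, are also among the Smad cofactors and negative regulators. Of 24 related ligands 14 were higher, against 48.2% of all probe sets, and 0 passed, with a median of 0.05. Inha and Bmp7 had differences of 0.26 and 0.28. Bmp5 had a difference of -0.20, and Bmp1, Bmp3, Gdf10 and Gdf7 lay between 0.04 and 0.28.

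On arrays 1 and 2, 0 genes of these lists passed, against 0% of all probe sets, of which 5.15% had an unadjusted p under 0.05. The medians there were 0.03 for the binding antagonists, 0.03 for storage and activation, 0.07 for genes induced in fibroblasts and 0.023 for genes induced in T cells, with 0 genes at an unadjusted p under 0.05 in each of these 4. The co-receptors and receptor relatives, the Smad cofactors and negative regulators and the related ligands had medians of -0.013, -0.0081 and -0.015. Of their genes 4 of 13, 10 of 21 and 9 of 24 were higher, against 49.4% of all probe sets. In each of these lists 0 genes had an unadjusted p under 0.05. The other Smads had a median of 0.25 there, with 1 of 5 at an unadjusted p under 0.05, Smad9 (0.52, limma unadjusted p = 0.0274, adjusted p = 0.936). Non-Smad signalling had a median of 0.017, with 2 of 11 at an unadjusted p under 0.05, Tab1 and Mapk8, named after their values were seen (0.40 and 0.35, limma adjusted p = 0.936 each).

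**Figure D4:**
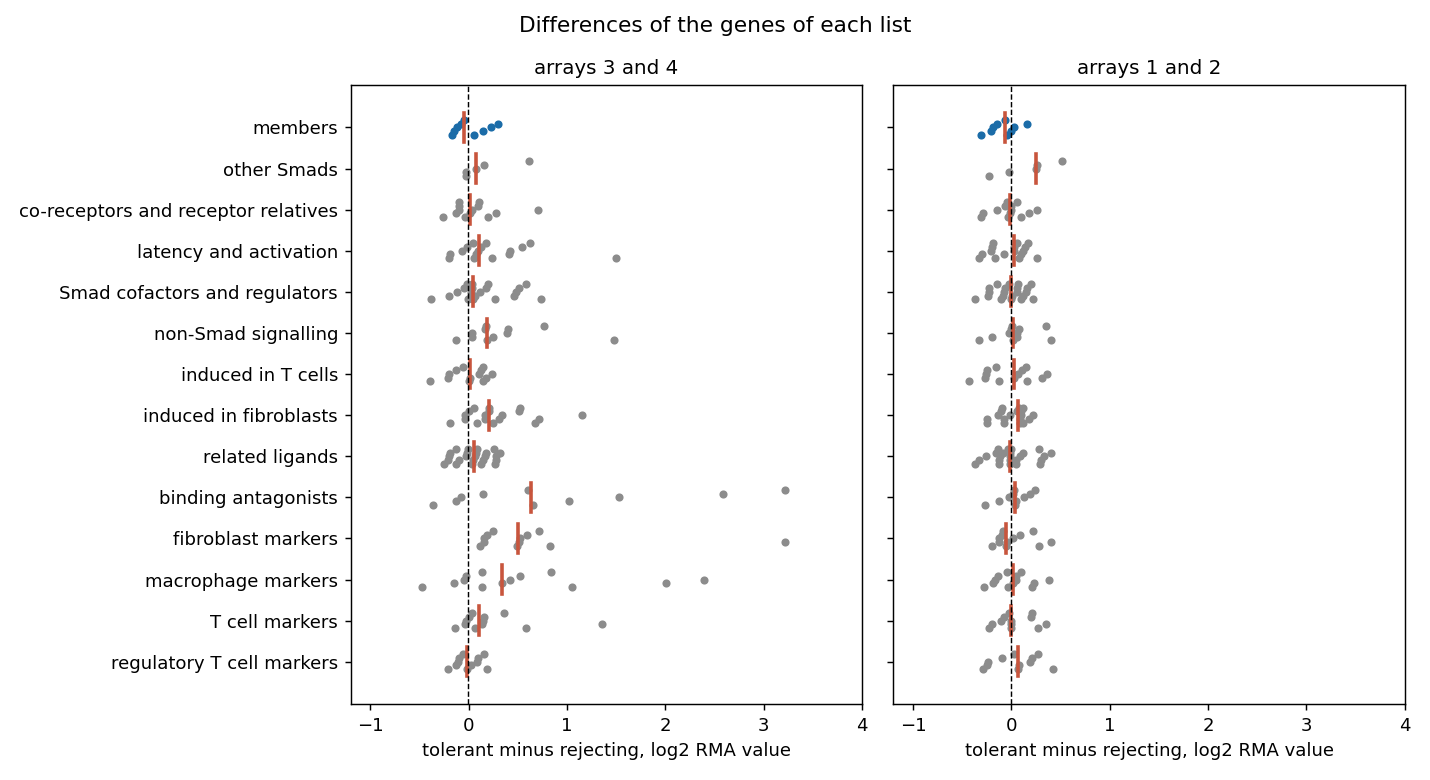
Tolerant minus rejecting difference in log2 RMA value of the genes of each list, on arrays 3 and 4 (left) and on arrays 1 and 2 (right), with 1 point per gene. Red bars are list medians and the dashed line is the median of all probe sets. On arrays 3 and 4 the members centre at -0.04 and the binding antagonists at 0.63. The lists were chosen with earlier results of these data known.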

How the data were processed

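Per the submitters' processing notes, the authors made the 35556 deposited log2 values of each of the 8 arrays by RMA in Affymetrix Expression Console. Versions and the log base are not stated, and base 2 was taken from the range of the values. The probe annotation gave 21218 probe sets exactly 1 gene symbol, 1881 several and 12457 none, and symbols were updated through Entrez identifiers to GRCm38.p6. Members kept all their probe sets, and other genes were represented by the probe set with the highest mean. The shares and medians over all probe sets rest on no such choice, and its part in the list counts was not tested.

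Tests were fitted with limma 3.58.1 in R 4.3.3, without trend, tested on simulated data, with adjusted p-values over 21218 probe sets. Figures used matplotlib 3.10.9 (Python 3.11.15). Lists were described by counts and medians. The text names every member, the list genes that passed, and of each pathway list up to 4 with the smallest p on arrays 3 and 4 and up to 3 with the highest mean. Marker lists are given mainly by counts, medians and sums. The members and lists were chosen with earlier results of these data known.

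Same-numbered arrays of the groups deviated together (correlations 0.499, 0.507, 0.410 and 0.599 for numbers 1 to 4), and the crossed numbers (1 with 2, 3 with 4) gave like values, 0.411 to 0.581. The reported fits have no block, and a block for the number was run as an alternative on the basis of these correlations, since the labels give no pairing. Alternatives were the replicate number or array set as a block, leaving out each array, other normalizations, filters, moderation, weights, thresholds and probe set rules. The number of arrays limits the precision, and signal over background limits the members.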

Additional observations from a re-analysis of the deposited data

Results flagged for a closer look

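Smad2 read 1.01 on rejecting array 2, far from the other 3 rejecting arrays, which lay between 0.31 and 0.41. The gap was 0.858 of the range of that group, above Dixon's 95% critical value, and the value still lay under the background line of that array, 1.15. About 1 in 20 groups would show such a gap by chance, and 18 groups of 4 were looked at.

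The tolerant minus rejecting difference itself differed between arrays 3 and 4 and arrays 1 and 2 in 3 genes around the pathway, by limma's test of that difference. It was larger on arrays 3 and 4 by 1.79 for Thbs1, by 3.20 for Dcn and by 2.86 for Bgn. On arrays 1 and 2 the differences were -0.29 for Thbs1, 0.018 for Dcn and -0.27 for Bgn. None of the 3 passed with quantile normalization again or with all probe sets tested together, and Thbs1 did not with the replicate block (limma adjusted p = 0.0780).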

How the results depend on the processing

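The count of members that passed was 0 in each of the 66 alternative fits over the 4 comparisons, the replicate block included, although under a filter on dim probe sets only 2 members, Tgfb1 and Tgfbi, could be fitted on arrays 3 and 4 and 0 in the other comparisons. The members' median of -0.04 on arrays 3 and 4 was 0.079 under that filter, over those 2 members, and -0.058 to 0.081 when 1 array was left out, the highest without rejecting replicate 3. The other medians stayed within the spread between replicates, -0.10 to -0.029 over 8 arrays and -0.11 to 0.0093 on arrays 1 and 2 with 1 array left out.

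Differences that did not pass changed sign in some fits for members and, on arrays 1 and 2, for Dcn, which is not a member. The cause was not tested. With array weights, Tgfb1 and Smad7 had 0.096 and 0.060 over 8 arrays, and with cyclic loess Tgfbr1 had 0.011 on arrays 3 and 4. With 1 array left out, the differences over 8 arrays were -0.19 to 0.071 for Tgfb1, -0.12 to 0.0024 for Tgfb2, -0.14 to 0.098 for Smad2, -0.23 to 0.091 for Smad3 and -0.11 to 0.078 for Smad7. On arrays 3 and 4 they were -0.31 to 0.011 for Tgfb2, -0.10 to 0.0094 for Tgfbr1, -0.44 to 0.11 for Smad3 and -0.23 to 0.081 for Tgfbi. On arrays 1 and 2 they were -0.10 to 0.15 for Tgfb2, -0.081 to 0.067 for Tgfb3, -0.051 to 0.36 for Lrrc32, -0.49 to 0.12 for Smad2, -0.11 to 0.0093 for Smad3 and -0.25 to 0.29 for Dcn. Between the array sets they were -0.027 to 0.080 for Tgfbr1, -0.062 to 0.35 for Lrrc32, -0.062 to 0.54 for Smad2, -0.39 to 0.15 for Smad3 and -0.024 to 0.29 for Tgfbi.

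The number of all probe sets called on arrays 3 and 4 was 11, and it was 0 with all 35556 probe sets tested together, 5 with the filter on dim probe sets, 8 with the replicate block, 17 with quantile normalization again, 20 with robust moderation, 25 at a threshold of 0.1 and 45 with probe sets averaged per gene. For the difference between the sets it was 12, and 7 with the replicate block, 6 with the filter, 0 with quantile normalization again, 0 with all probe sets, 32 at a threshold of 0.1 and 33 with probe sets averaged per gene. With 1 array left out these counts ran from 0 to 48 and from 0 to 76. Signal over background limits the members, since 5 of the 9 never passed the line.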
